A study of Homo sapiens with 6 samples.

Results

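Extracellular proteolysis was examined through 9 genes: the matrix metalloproteases MMP1, MMP7, MMP14 and MMP15, the plasminogen activators PLAU and PLAT, the urokinase receptor PLAUR, and the inhibitors TIMP1 and TIMP2. They were taken by gene symbol from the deposited tables, and they are 9 of the 58233 genes listed there. All 9 passed the filter on low values. The cells were labelled Huh7, an established line from a human hepatocellular carcinoma. They carried either an overexpression plasmid for the long noncoding RNA TP53TG1 or an empty control plasmid, with 3 libraries of each. The time after transfection, the share of cells that took up the plasmid and whether the replicates were separate cultures are not stated in the labels, so the p-values measure only the spread between these libraries.

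As background, matrix metalloproteases are zinc enzymes made as inactive proenzymes that cut collagens, other matrix proteins and cell surface proteins once their propeptide is removed. PLAU (urokinase) and PLAT (tissue plasminogen activator) are serine proteases that turn plasminogen into plasmin, which degrades fibrin and can activate some metalloproteases. PLAUR holds urokinase at the cell surface, and the TIMP proteins bind the active site of metalloproteases. These systems are studied in liver cancer for their part in invasion.

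Promoter sequences are shown for MMP7 and PLAU, whose scaled levels did not overlap between the groups, and for PLAUR, which encodes the receptor of urokinase. RefSeq promoter windows in build GRCh38.p14, from 250 bases before to 50 bases after a gene start, were found for 6 of the 9 genes, in 7 windows, and MMP1, PLAT and TIMP2 had no entry. Capitals mark matches, on either strand, to the AP-1 motif TGANTCA, the ETS motif AGGAAG or the TCF/LEF motif CTTTGA. No match overlapped another.
MMP7, chr11:102530698-102530997, minus strand: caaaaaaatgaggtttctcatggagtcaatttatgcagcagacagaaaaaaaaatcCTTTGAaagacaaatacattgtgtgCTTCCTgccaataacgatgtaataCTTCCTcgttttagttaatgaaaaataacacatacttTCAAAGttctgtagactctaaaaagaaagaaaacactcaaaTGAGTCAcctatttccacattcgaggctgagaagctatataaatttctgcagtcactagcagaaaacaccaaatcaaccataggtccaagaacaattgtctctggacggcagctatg
PLAUR, chr19:43670120-43670419, minus strand: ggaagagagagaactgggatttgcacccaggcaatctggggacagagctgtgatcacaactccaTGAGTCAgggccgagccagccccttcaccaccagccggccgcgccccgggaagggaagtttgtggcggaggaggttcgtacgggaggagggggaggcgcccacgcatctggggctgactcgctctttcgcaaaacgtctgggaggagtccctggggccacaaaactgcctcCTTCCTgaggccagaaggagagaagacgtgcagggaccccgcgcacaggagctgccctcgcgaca
PLAU, chr10:73910882-73911181, plus strand: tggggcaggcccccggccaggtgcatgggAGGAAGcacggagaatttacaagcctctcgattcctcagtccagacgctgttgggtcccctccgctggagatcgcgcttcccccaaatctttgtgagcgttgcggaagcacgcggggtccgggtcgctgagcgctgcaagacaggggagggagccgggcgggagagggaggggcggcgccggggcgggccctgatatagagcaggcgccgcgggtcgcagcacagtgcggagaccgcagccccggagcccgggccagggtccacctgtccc

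The MMP7 window held all of these motifs: AP-1 at 67 bases before the start, ETS at 169 and 145 bases before, and TCF/LEF at 194 and 108 bases before. PLAUR had AP-1 at 186 bases and ETS at 15 bases before the start. This PLAU window had ETS at 221 bases before the start, and the other PLAU window held no match. TIMP1 had ETS at 87 bases before the start, and the windows of MMP14 and MMP15 had no match. Of all 35116 windows in the table, 7.71% held AP-1, 33.6% ETS and 12.9% TCF/LEF. A match describes these letters and is not a measured binding site.

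TP53TG1 RNA was used to check the labels, without telling plasmid RNA from that of the cells' own gene. It was at 10.57, 5.25 and 6.15 FPKM in the controls (FPKM, fragments per kilobase of transcript, divided by the library's depth). The TP53TG1 libraries had 69.83, 134.21 and 70.48 FPKM. Every TP53TG1 library lay above every control, with a log2 fold change of 3.46 and an adjusted p by limma of 0.0573, and of 0.0466 on the scaled values described below. Of the hepatocyte markers 2 of 5 averaged 1 FPKM or more, HNF4A at 2.57 to 14.98 FPKM and APOB at 0.2 to 2.41 FPKM. ALB was at only 0.53 to 1.22 FPKM, APOA1 at 0.18 to 0.43 FPKM and TTR at 0 to 0.17 FPKM. Most of these markers were low, so the name of the line rests on the labels. The epithelial keratin KRT8 was at 1624 to 2848 FPKM and EPCAM at 0.03 to 0.23 FPKM. Of the fibroblast markers 5 of 6 averaged 1 FPKM or more, with a summed level of 19.13 to 21.54 FPKM in the controls and 22.58 to 32.54 FPKM in the TP53TG1 libraries. COL1A1 was highest in TP53TG1 replicate 1, at 10.88 FPKM, while LUM was lowest in that library, at 9.99 FPKM against 10.89 to 14.98 FPKM in the others. Of the endothelial markers 2 of 4 averaged 1 FPKM or more, PECAM1 at 1.02 to 5.72 FPKM and KDR at 0.88 to 6.4 FPKM, while CDH5 was at 0 to 0.03 FPKM, and the summed level was 6.84 to 12.21 FPKM in the controls and 1.92 to 9.1 FPKM in the TP53TG1 libraries. Of the leukocyte and macrophage markers 1 of 5 averaged 1 FPKM or more, CD14 at 0.36 to 2.6 FPKM, while PTPRC was at 0 to 0.13 FPKM. Both libraries numbered 1 stood apart. Control replicate 1 had the highest total, 890541 FPKM against 599081 to 681504 in the other libraries. TP53TG1 replicate 1 had the lowest total, 599081 FPKM, though near the next, at 620968. It also had the lowest median-of-ratios factor, 0.597 against 0.999 to 1.18. This factor divides a library by the typical ratio of its genes to their means, and values called scaled below were divided by it. The part of these library differences in the results was not tested.

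None of the 9 genes passed the test between the groups. The test was limma on log2(FPKM + 1) over 12853 genes averaging 1 FPKM or more, with p-values adjusted by Benjamini-Hochberg and called under 0.05. It called 1 gene, or 0.00778% of those tested. At an unadjusted p under 0.05 it again found 0 of the 9, against 302 genes or 2.35% of all. The fold changes of 6 of the 9 were above 0, compared with 1101 of all 12853 genes (8.57%), and their median log2 fold change was 0.07 against -0.35 over all genes. After scaling the median over all genes was -0.0040, and 8 of the 9 were above 0, against 49.1% of all genes. The 9 genes were chosen with earlier results of these data known and share the same 6 libraries, so these counts are descriptions only. In bulk RNA, fewer cells making a transcript and less transcript per cell cannot be told apart.

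**Figure D1:**
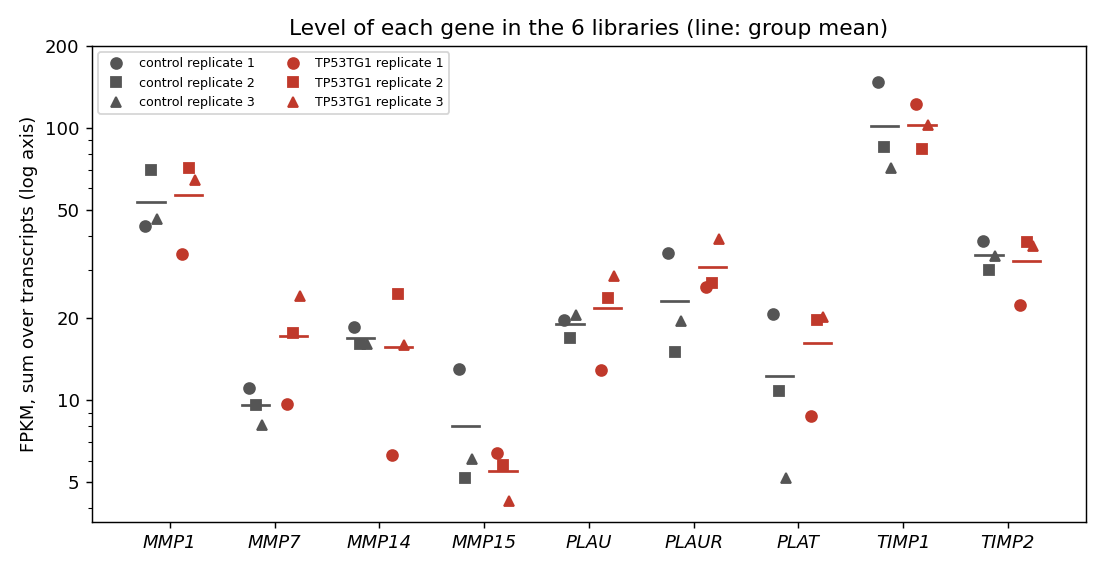
Level of each of the 9 genes in the 6 libraries, in FPKM on a log axis, with controls in grey, TP53TG1 libraries in red, a symbol for each replicate number and a line at the group mean. TIMP1 had the highest mean, and in each of the 9 genes the range of the controls overlaps that of the TP53TG1 libraries.

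MMP1 encodes interstitial collagenase, a secreted enzyme that cuts fibrillar collagen (ENSG00000196611, chromosome 11, 102789920 to 102798160, minus strand, in GRCh38). It was at 43.57, 70.02 and 46.18 FPKM in the controls, and the TP53TG1 libraries had 34.42, 71.36 and 64.08 FPKM. The lowest and the highest library were both in the TP53TG1 group. Its means were 53.3 ± 14.6 and 56.6 ± 19.6 FPKM (SD, n = 3 each). The log2 fold change was 0.05, with a 95% interval from -0.75 to 0.86 and an adjusted p of 0.935 by limma.

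MMP7 encodes matrilysin, a small secreted enzyme with no hemopexin domain and a known target of beta-catenin (ENSG00000137673, chromosome 11, 102520508 to 102530753, minus strand). It was at 11.05, 9.57 and 8.11 FPKM in the controls, and the TP53TG1 libraries had 9.70, 17.60 and 24.09 FPKM. TP53TG1 replicates 2 and 3 lay above every control, and replicate 1 lay within their range. The means were 9.58 ± 1.47 and 17.1 ± 7.21 FPKM (SD, n = 3 each), and the log2 fold change was 0.70, with an interval from -0.17 to 1.58 and an adjusted p of 0.748 by limma. The exact permutation test over the 6 libraries gave a two-sided p of 0.2, where 0.1 is the smallest p that 3 against 3 allows.

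Scaled, MMP7 was at 10.02, 8.11 and 6.90 in the controls and at 16.3, 16.1 and 24.1 in the TP53TG1 libraries, so that the groups no longer overlapped. The scaled log2 fold change was 1.07 (interval 0.46 to 1.69), with an unadjusted p of 0.0041 and an adjusted p of 0.9999 by limma. At that unadjusted threshold scaled values found 1 of the 9 genes, MMP7, and 1.17% of all genes. The direction of MMP7 was the same in all 15 alternatives, from 0.42 to 1.14 on the log2 scale, with adjusted p-values from 0.427 to 0.9999 by limma. For every gene, the other filters and the replicate block leave the estimate unchanged, so these alternatives could not turn a sign.

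MMP14 encodes MT1-MMP, a membrane-anchored enzyme that activates pro-MMP2 together with TIMP2 (ENSG00000157227, chromosome 14, 22836557 to 22849027, plus strand). It was at 18.63, 16.02 and 16.02 FPKM in the controls, and the TP53TG1 libraries had 6.29, 24.62 and 15.94 FPKM. The controls lay close together, while TP53TG1 replicate 1 was the lowest library and replicate 2 the highest. The means were 16.9 ± 1.51 and 15.6 ± 9.17 FPKM (SD, n = 3 each), with a log2 fold change of -0.28 (interval -1.32 to 0.76) and an adjusted p of 0.766 by limma. The scaled fold change was 0.09, and that of deposited values without TP53TG1 replicate 1 was 0.22, both of the opposite sign. These sums include a retained-intron transcript of 560 nt, at 8.46 and 6.35 FPKM in TP53TG1 replicates 2 and 3. The main coding transcript was at 16.16 and 9.59 FPKM there, and at 14.30 to 18.63 FPKM in the controls.

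MMP15 encodes MT2-MMP, another membrane-type enzyme (ENSG00000102996, chromosome 16, 58025566 to 58046901, plus strand). It was at 12.98, 5.16 and 6.06 FPKM in the controls, and the TP53TG1 libraries had 6.41, 5.80 and 4.27 FPKM. Control replicate 1 was the highest and the other 5 libraries lay close together. The means were 8.07 ± 4.28 and 5.49 ± 1.10 FPKM (SD, n = 3 each), with a log2 fold change of -0.40 (interval -1.32 to 0.53) and an adjusted p of 0.748 by limma. Its fold change was -0.04 without control replicate 1 and also after scaling, and it ran from -0.63 to -0.04 over the 15 alternatives. MMP15 was the one gene of the 9 below the median of all genes.

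PLAU encodes urokinase (ENSG00000122861, chromosome 10, 73909177 to 73917497, plus strand). It was at 19.70, 16.98 and 20.59 FPKM in the controls, and the TP53TG1 libraries had 12.93, 23.81 and 28.58 FPKM. TP53TG1 replicate 1 was the lowest library, and replicates 2 and 3 were the highest. The means were 19.1 ± 1.88 and 21.8 ± 8.02 FPKM (SD, n = 3 each), with a log2 fold change of 0.12 (interval -0.69 to 0.92) and an adjusted p of 0.856 by limma. Scaled levels were 17.9, 14.4 and 17.5 in the controls and 21.7, 21.7 and 28.6 in the TP53TG1 libraries. The scaled groups did not overlap, with a log2 fold change of 0.50 (interval -0.02 to 1.02). By limma its unadjusted p was 0.058 and its adjusted p 0.9999. The exact permutation p of 0.1, the smallest possible, follows from the lack of overlap and adds nothing to it. On deposited values without TP53TG1 replicate 3 the fold change was -0.11.

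PLAUR encodes the glycolipid-anchored urokinase receptor (ENSG00000011422, chromosome 19, 43646095 to 43670547, minus strand). It was at 34.68, 15.00 and 19.48 FPKM in the controls, and the TP53TG1 libraries had 26.00, 26.91 and 39.20 FPKM. Control replicate 1 lay above TP53TG1 replicates 1 and 2, so the groups overlapped. The means were 23.1 ± 10.3 and 30.7 ± 7.37 FPKM (SD, n = 3 each), with a log2 fold change of 0.46 (interval -0.38 to 1.30) and an adjusted p of 0.748 by limma. Its direction held in all 15 alternatives, from 0.21 to 0.89.

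PLAT encodes tissue plasminogen activator (ENSG00000104368, chromosome 8, 42175233 to 42207724, minus strand). It was at 20.76, 10.82 and 5.17 FPKM in the controls, and the TP53TG1 libraries had 8.75, 19.64 and 20.18 FPKM. The controls alone covered the range of the TP53TG1 group. The means were 12.3 ± 7.89 and 16.2 ± 6.45 FPKM (SD, n = 3 each), with a log2 fold change of 0.48 (interval -0.70 to 1.65) and an adjusted p of 0.748 by limma. Its sign also held in the 15 alternatives, but its size ran from 0.02 to 1.29.

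TIMP1, a secreted inhibitor of most metalloproteases, had the highest level of the 9 (ENSG00000102265, chromosome X, 47582313 to 47586789, plus strand). It was at 147.54, 84.75 and 71.25 FPKM in the controls, and the TP53TG1 libraries had 122.01, 83.48 and 102.14 FPKM. In both groups replicate 1 was the highest library. The means were 101 ± 40.7 and 103 ± 19.3 FPKM (SD, n = 3 each), with a log2 fold change of 0.07 (interval -0.67 to 0.82) and an adjusted p of 0.902 by limma.

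TIMP2, which inhibits metalloproteases and also takes part in pro-MMP2 activation at the cell surface, was at 38.57, 30.08 and 33.73 FPKM in the controls (ENSG00000035862, chromosome 17, 78852977 to 78925387, minus strand). In the TP53TG1 libraries it was at 22.34, 38.17 and 36.71 FPKM. TP53TG1 replicate 1 was the lowest library, and the other 5 lay between 30.08 and 38.57 FPKM. The means were 34.1 ± 4.26 and 32.4 ± 8.75 FPKM (SD, n = 3 each), with a log2 fold change of -0.10 (interval -0.80 to 0.60) and an adjusted p of 0.853 by limma. The sign was positive after scaling, at 0.29, and without TP53TG1 replicate 1, at 0.14.

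In the order of control means, TIMP1 and MMP1 stood first, followed by TIMP2, PLAUR, PLAU, MMP14, PLAT, MMP7 and MMP15. FPKM are divided by length, but the mean length of coding transcripts differed between the controls, from 1311 nt in control replicate 1 to 1709 nt in control replicate 3. Ratios between genes also differed, with TIMP1 to TIMP2 at 3.83, 2.82 and 2.11 in the controls. The order is therefore only approximate. In each neighbouring pair of this order the ranges of the control libraries overlapped, except MMP1 above TIMP2 and TIMP1 above MMP1, whose ranges were apart (71.25 to 147.54 against 43.57 to 70.02 FPKM for the latter). Over the TP53TG1 means the order was TIMP1, MMP1, TIMP2, PLAUR, PLAU, MMP7, PLAT, MMP14 and MMP15, with MMP7 above MMP14, although the TP53TG1 libraries of the 2 genes overlapped.

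**Figure D2:**
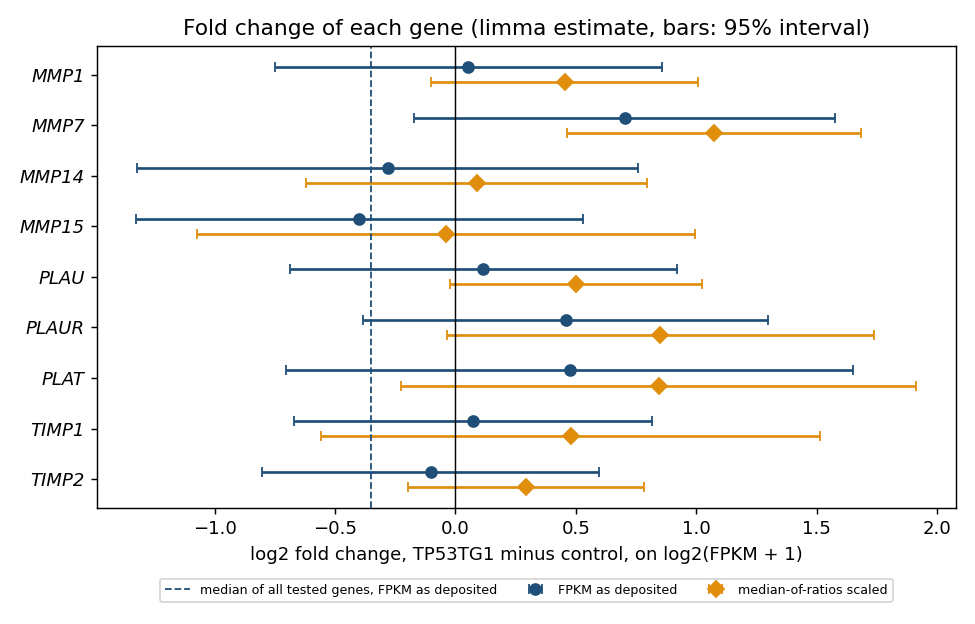
Log2 fold change of each gene, TP53TG1 minus control on log2(FPKM + 1), by limma, with its 95% interval, for values as deposited (circles) and median-of-ratios scaled (diamonds). Every interval from the deposited values includes 0, and after scaling only that of MMP7, from 0.46 to 1.69, does not.

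Groups that do not overlap were counted as a second description. On deposited FPKM, none of the 9 genes had all TP53TG1 libraries above or below all controls, while this held for 0.428% of all tested genes upward and 13.3% downward. On scaled values, 2 of the 9, MMP7 and PLAU, lay higher without overlap, and none lower. Over all genes the shares were 2.02% higher and 2.05% lower.

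A limma fit that blocked on the replicate number called 192 genes at the adjusted threshold, 1.49% of all, but 0 of the 9. MMP7 had the lowest adjusted p there, 0.427. With block and scaling together, 5 of the 9 were at an unadjusted p under 0.05, compared with 683 genes or 5.31% of all: MMP1, MMP7, PLAU, PLAUR and TIMP1, with adjusted p-values from 0.729 upward by limma. None passed the adjusted threshold, and this count is likewise only a description of genes chosen with earlier results known.

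Ratios between libraries of the same number showed where the spread lay. All 9 genes were lower in TP53TG1 replicate 1 than in control replicate 1, with ratios from 0.338 for MMP14 to 0.878 for MMP7. In the libraries numbered 2, 8 of the 9 had ratios above 1, and in those numbered 3, 7 of the 9. Over all genes, grouped by length, the median ratios were 0.586 to 0.653 for number 1, 0.915 to 0.935 for number 2 and 0.837 to 0.885 for number 3. MMP7 had ratios of 0.878, 1.84 and 2.97, PLAUR of 0.750, 1.79 and 2.01, and PLAT of 0.421, 1.82 and 3.903.

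In the libraries numbered 1, the 4 genes with the longest transcripts, MMP15, TIMP2, MMP14 and PLAT, had the 4 lowest ratios. Spearman's rho between ratio and mean transcript length over the 9 genes was -0.833, -0.05 and -0.667 for numbers 1, 2 and 3, and over 12838 genes it was -0.154, 0.0459 and -0.0849. The 9 genes of a pair share 2 libraries, so these are descriptions without a test. Over all genes the median ratio in the libraries numbered 1 was 0.653 for transcripts under 1500 nt and 0.586 for those of 2500 nt or more. The mean length of coding transcripts in TP53TG1 replicate 1 was 1228 nt and in control replicate 1 it was 1311 nt, compared with 1652 to 1710 nt in the other 4 libraries. The part of length in the fold changes was not tested.

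**Figure D3:**
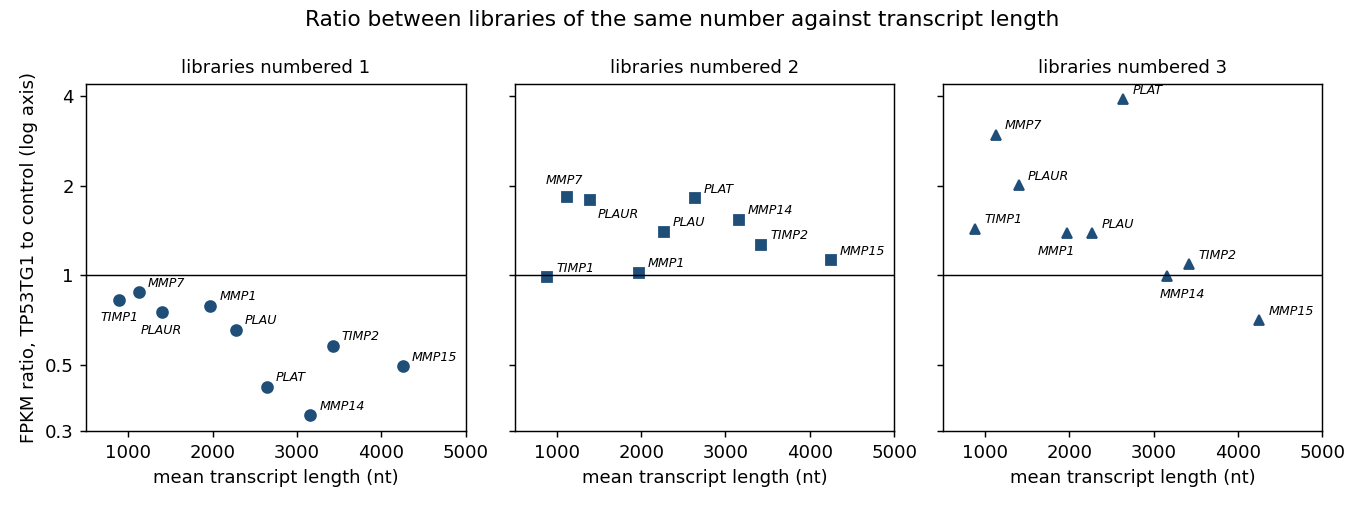
Ratio of FPKM, TP53TG1 to control, on a log axis, against the mean transcript length of each gene in nt, in a panel for each replicate number. All 9 genes lie below 1 in the libraries numbered 1, and MMP7, PLAUR and PLAT are at 1.79 or more in both other panels.

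Ratios within a library do not depend on its scaling, and in all of those computed the groups overlapped. The ratio of MMP7 to TIMP1 was 0.0749, 0.113 and 0.114 in the controls and 0.0795, 0.211 and 0.236 in the TP53TG1 libraries, with TP53TG1 replicate 1 among the controls. The ratio of MMP7 to MMP1 was 0.254, 0.137 and 0.176 in the controls and 0.282, 0.247 and 0.376 in the TP53TG1 libraries. Both ratios were higher in each TP53TG1 library than in the control of its number, though by little in the libraries numbered 1. That of MMP1 to TIMP1 was 0.295, 0.826 and 0.648 in the controls and 0.282, 0.855 and 0.627 in the TP53TG1 libraries, with nearly the same value in libraries of the same number. That of MMP14 to TIMP2 was 0.483, 0.533 and 0.475 in the controls and 0.282, 0.645 and 0.434 in the TP53TG1 libraries. The ratio of PLAU to PLAUR was 0.568, 1.13 and 1.06 in the controls and 0.497, 0.885 and 0.729 in the TP53TG1 libraries. Each TP53TG1 library was below the control of its number, but the groups overlapped.

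MMP1 and MMP15 had a single transcript above 0, and the leading MMP7 transcript held at least 98.8% of the gene. The leading TIMP2 transcript, ENST00000585421, held 71.5 ± 2.5% and 70.5 ± 2.3% (SD, n = 3 each). The leading PLAUR transcript, ENST00000340093, held 60.0 ± 7.9% and 57.8 ± 2.6% (SD, n = 3 each). The leading transcripts of PLAU, PLAT and TIMP1 held 84.2 ± 6.4% and 87.8 ± 3.6%, 86.2 ± 3.6% and 91.5 ± 6.3%, and 97.2 ± 1.6% and 95.6 ± 2.2% in controls and TP53TG1 libraries (SD, n = 3 each).

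MMP14 was the gene whose shares varied most between libraries of the TP53TG1 group. Its retained-intron transcript ENST00000547074, of 560 nt, was listed at 0, 0 and 1.5 FPKM in the controls, and the TP53TG1 libraries had 0, 8.46 and 6.35 FPKM. Its coding transcript ENST00000311852, of 3732 nt, was at 18.63, 14.85 and 14.30 FPKM in the controls, and the TP53TG1 libraries had 6.29, 16.16 and 9.59 FPKM. The coding share was 94.0 ± 5.5% and 75.3 ± 21.6% (SD, n = 3 each), with an exact permutation p of 0.4. With only the leading transcript of each gene, the log2 fold change of MMP14 was -0.62.

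**Figure D4:**
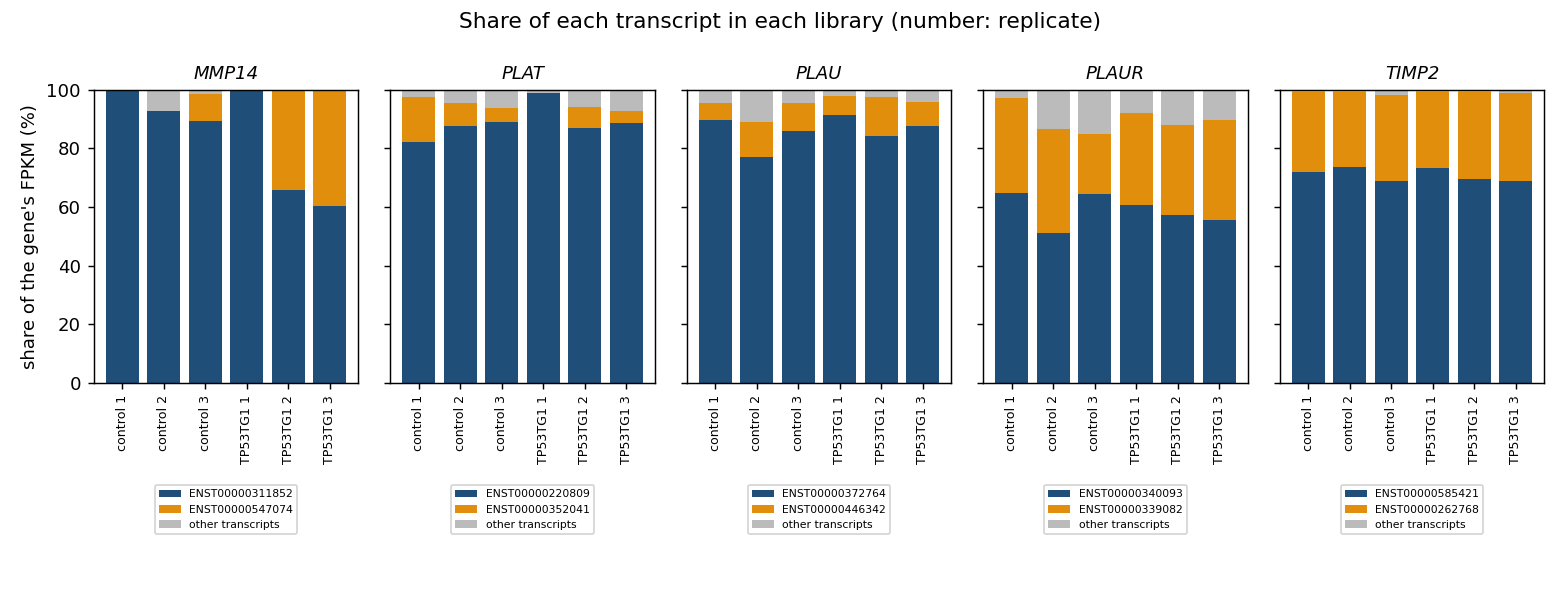
Share of the FPKM of MMP14, PLAT, PLAU, PLAUR and TIMP2, in %, held by its leading transcript, the next one and all others, as stacked bars for the 6 libraries. MMP14 has a large share of its retained-intron transcript in TP53TG1 replicates 2 and 3, 34.4% and 39.8%, and in each of these 5 genes the same transcript leads in all 6 libraries.

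The wider system was described through 82 further genes in lists by role, of which 43 were tested. By limma 0 of the 43 passed the adjusted threshold and 0 had an unadjusted p under 0.05, and their median log2 fold change was -0.34 against -0.35 for all genes. With the replicate block 1 of the 43 passed, against 1.49% of all genes: SPINT2, an inhibitor of serine proteases, at an adjusted p of 0.030 by limma. With block and scaling together it did not pass, at an adjusted p of 0.890 by limma. It was at 1.78, 3.19 and 5.65 FPKM in the controls, and the TP53TG1 libraries had 0.07, 3.88 and 0.25 FPKM. Thus 1 library of that group lay within the control range, and the ratio in the libraries numbered 2 was above 1, at 1.22. The block fit on deposited values hardly uses this spread between pairs.

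Of 19 other metalloproteases, 4 were tested, none passed, and all 4 had fold changes below the median of all genes. The gelatinase MMP2 was at 16.8 ± 3.18 and 12.8 ± 1.29 FPKM, the stromelysin-like MMP11 at 2.94 ± 1.68 and 1.58 ± 0.616 FPKM, MMP23B at 2.39 ± 0.635 and 1.39 ± 0.505 FPKM, and the membrane-type MMP24 at 1.85 ± 0.161 and 0.977 ± 0.445 FPKM (SD, n = 3 each). All TP53TG1 libraries lay below all controls for MMP2, MMP23B and MMP24, but after scaling this held for MMP24 alone, against the shares over all genes given above. The gelatinase MMP9 averaged 0.018 FPKM and was not tested.

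Of 14 other inhibitors 8 were tested and none passed. Protease nexin SERPINE2 was at 211 ± 51.8 and 186 ± 93.8 FPKM, the intracellular SERPINB6 at 73.8 ± 31.4 and 55.9 ± 14.1 FPKM, and neuroserpin SERPINI1 at 1.89 ± 0.909 and 1.37 ± 0.196 FPKM (SD, n = 3 each). Of 12 plasminogen receptors and binding proteins 9 were tested and none passed. LRP1, an endocytic receptor that clears urokinase and inhibitor complexes, was at 32.0 ± 5.97 and 25.0 ± 11.7 FPKM, and the plasminogen receptor PLGRKT at 5.79 ± 1.46 and 4.33 ± 0.909 FPKM (SD, n = 3 each). VLDLR, of the same receptor family, was at 5.76 ± 0.164 and 4.56 ± 2.23 FPKM, and the integrin chain ITGB1 at 293 ± 79.8 and 248 ± 148 FPKM (SD, n = 3 each).

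Of 9 proteases of the plasmin system only HABP2 was tested, at 3.15 ± 1.26 and 1.85 ± 1.06 FPKM (SD, n = 3 each), and it did not pass. PLG, the plasminogen gene, was at 0 to 0.30 FPKM. All 13 activators and inducers of metalloproteases were tested and none passed. FURIN, the convertase that removes the propeptide of membrane-type enzymes, was at 36.0 ± 10.3 and 21.5 ± 11.4 FPKM, and the ETS factor ETV5 at 49.8 ± 9.47 and 30.2 ± 15.0 FPKM (SD, n = 3 each). The ETS factor ETV4 was at 30.2 ± 7.002 and 18.6 ± 7.29 FPKM and ELF3 at 167 ± 55.3 and 110.5 ± 38.3 FPKM (SD, n = 3 each). Of 15 ADAM and ADAMTS genes 8 were tested and none passed. Among these ADAM9 was at 173 ± 35.8 and 141 ± 65.0 FPKM, ADAM15 at 109.9 ± 31.1 and 88.7 ± 8.15 FPKM, ADAM17, the TNF sheddase, at 8.39 ± 5.41 and 5.59 ± 4.53 FPKM, and ADAMTS13, which cuts von Willebrand factor, at 2.95 ± 0.865 and 1.76 ± 0.9902 FPKM (SD, n = 3 each).

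TIMP1 had the highest mean of the 9, and the genes with the most similar profile over the 6 libraries were UBB, FKBP2 and VEGFB. Their centred log2 values differed from those of TIMP1 by a root mean square of 0.0707, 0.0732 and 0.0853, among 8807 genes averaging 5 FPKM or more. With 6 libraries that differ in total and in length profile, this is a description of the libraries.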

How the data were processed

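RNA from cells labelled Huh7 was sequenced in 3 control and 3 TP53TG1 libraries, prepared with a TruSeq kit per the labels' protocols. The submitters' processing notes list HISAT2 (an aligner), StringTie (a transcript quantifier) and build GRCh38.p10, without parameters. The authors deposited transcript values, taken as FPKM: the file headers give no unit, totals ran from 599081 to 890541, and the sum of FPKM times length in kb was 971314 to 1129554 in 5 libraries and 679383 in TP53TG1 replicate 1, where FPKM would give about 1000000. FPKM were summed per gene, with blank symbols filled from the other libraries. Lengths and coordinates came from GENCODE (GRCh38).

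The smallest steps of single-transcript genes, if 1 fragment each, gave 11000000 to 14800000 fragments per library, an estimate without an interval, and 119 (MMP7) to 1946 (TIMP2) fragments for a gene of the 9 in a library. Genes averaging at least 1 FPKM were tested on log2(FPKM + 1), which understates changes of low genes, with limma 3.58.1 (mean-variance trend, R 4.3.3) and Benjamini-Hochberg adjustment. The fit was tested on simulated data. Single genes were also tested by exact permutation, two-sided.

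Same-numbered libraries deviated together from their group means, with correlations of 0.71, 0.562 and 0.289, all over the limit of 0.1, so the numbers were taken as pairs from the data, not from the labels. Control replicate 3 with TP53TG1 replicate 2, at 0.40, and control replicate 2 with TP53TG1 replicate 3, at 0.302, were also over it, so replicates 2 and 3 are not clearly told apart by this check. The block leaves 2 residual degrees of freedom, and on deposited values its p-values hardly used a gene's own spread between pairs. Alternatives covered scaling, pseudocount, filter, block, leaving libraries out and the leading transcript. Within-library ratios and the length comparison were added after seeing the data.

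The members and lists were chosen with earlier results of these data known. Named were the 9 genes, up to 4 tested genes per list with the smallest p, TP53TG1, and the 3 genes most like the highest of the 9. MMP9 and PLG were named for their role after their values were seen. The values of 1 further gene are not reported here.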

Additional observations from a re-analysis of the deposited data

How the results depend on the processing

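None of the 9 genes passed the adjusted threshold in any of 15 alternatives. MMP7, MMP15, PLAUR and PLAT kept their sign in all 15, MMP15 at only -0.04 without control replicate 1 or after scaling, and of 135 values of the 9 genes 17 changed sign. The other filters and the replicate block do not change the estimate, so part of these values could not change sign. The number of genes called among all was 1, and it was 0 with no filter, 2 with a mean of at least 5 FPKM, 2 with median-of-ratios scaling, 192 with the replicate block, 6 with the replicate block and scaling, and 0 to 1 with a library left out (0 without control replicate 1 or 3). In the wider lists the replicate block called 1 gene, SPINT2, in a fit that hardly used each gene's own spread between pairs. The cause of these differences was not tested.

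Median-of-ratios scaling, with or without the replicate block, turned the log2 fold change to 0.089 for MMP14, 0.29 for TIMP2, 0.028 for MMP2, 0.057 for SERPINB6, 0.015 for SERPINI1, 0.095 for SERPINE2, 0.011 for PLGRKT, 0.00060 for ADAM9 and 0.13 for ADAM15. With the same total per library TIMP2 was at 0.16. Without both libraries numbered 1, MMP14 was at 0.29, TIMP2 at 0.23 and SERPINE2 at 0.015. With 1 library left out, values ran from -0.14 to 0.37 for MMP1, -0.68 to 0.22 for MMP14, -0.11 to 0.44 for PLAU, -0.14 to 0.38 for TIMP1, -0.24 to 0.14 for TIMP2, -0.64 to 0.20 for SERPINE2, -0.86 to 0.22 for ITGB1, -0.70 to 0.049 for ADAM9 and -1.14 to 0.044 for ADAM17. A 3 against 3 design cannot reach an exact p under 0.1.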
